A study of Rattus norvegicus with 9 samples.

Results

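Solute carriers are the membrane proteins, named Slc, that move nutrients, ions, metals and metabolites across the plasma membrane and the membranes of organelles. Their messenger RNA was followed here in rat hepatic macrophages during the first days after the portal vein was narrowed. The members were the genes on the array whose symbol begins with Slc and whose mean log2 value over all 9 arrays was 6 or higher, with 7 genes left out by name (Slc40a1, Slc11a1, Slc7a2, Slc2a1, Slc30a1, Slc39a8 and Slc39a14). This gave 142 of the 359 Slc genes that had a probeset with a single gene symbol, out of 18166 such genes in all. The other Slc genes with a single symbol, 210 in number, had a mean below 6. The rule used each gene's mean over all arrays and no difference between groups, so the groups could be compared by a test. Nearest to the threshold, Slc7a7 (6.12) and Slc14a1 (6.19) lay just above it, and Slc25a15 (5.98) and Slc30a3 (5.96) just below.

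The study asked how the transcriptome of hepatic macrophages changes with time once the portal vein has been partly tied off (partial portal vein ligation, PPVL). The operation leaves a fixed narrowing of the vein and models portal hypertension in a liver without cirrhosis. All rats were Sprague-Dawley. Macrophages were isolated from the liver of each rat, 3 rats at 3 days after ligation, 3 at 10 days after ligation and 3 that had the same operation with no ligature (sham), and total RNA of each rat was hybridised to 1 Affymetrix array. The labels give no age for the rats and no day of collection for the sham group, so ligation cannot be told apart from a difference in the time since surgery.

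Solute carriers are grouped by the cargo they move. Some work alone, some exchange one solute for another, and some amino acid exchangers reach the cell surface only when bound to the heavy chain Slc3a2. In macrophages, amino acid, metal and proton carriers at the plasma membrane and at the lysosome serve the digestion of engulfed material and the recycling of its contents, while the Slc25 family serves the mitochondrial inner membrane and the Slc35 family brings nucleotide sugars into the Golgi.

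Values are on the log2 scale after robust multi-array averaging, and a difference of 1 is a doubling. Because probesets differ in how strongly they hybridise, levels were compared between groups for the same gene and not between genes. Differences are given as the estimate ± its standard error, from a linear model over all 9 arrays with limma's moderated test, and p-values were adjusted by the Benjamini-Hochberg method over the 14014 genes tested. A gene is said to have risen or fallen where the adjusted p was below 0.05. The arrays were alike in overall level, with medians between 5.21 and 5.26 and correlations between arrays from 0.987 to 0.993. Macrophage markers were at high levels in all groups, with group means between 10.95 and 11.34 for Cd68 and between 9.89 and 10.48 for Csf1r. The Kupffer cell markers Clec4f (4.64 to 5.26) and Cd163 (4.35 to 4.66) were near the filter on dim genes at 4.16. RNA of other cells was also present, since the T cell gene Cd3e had group means of 9.32 to 9.73 and the hepatocyte gene Alb of 7.44 to 8.18.

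At 3 days, 12 of the 142 solute carriers differed from sham, of which 9 rose and 3 fell. The genes that rose were the amino acid exchanger Slc7a8, the nucleoside carrier Slc28a2, the magnesium carrier Slc41a2, the mitochondrial carrier Slc25a24, the zinc carrier Slc30a4, the copper carrier Slc31a2, the proton exchanger Slc9a7, the organic ion carrier Slc22a15 and the orphan carrier Slc35e4. Those that fell were the lysosomal carrier Slc46a3, the potassium-chloride cotransporter Slc12a7 and the sugar phosphate carrier Slc37a1. At 10 days 2 members differed from sham: Slc12a7 was again lower, and the mitochondrial aspartate-glutamate carrier Slc25a13 was higher. In bulk RNA, fewer cells of a type and less RNA per cell cannot be told apart.

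The share of members that passed at 3 days was 8.45%, against 2.86% of all genes tested and 4.34% of the 8270 genes that, like the members, had a mean of 6 or higher. The 9 that rose compare with 2.15% of all genes that rose, and the 3 that fell with 0.714% that fell. At an unadjusted p under 0.05 there were 54 members (36 higher and 18 lower), or 38%, against 15.5% of all genes and 20.3% of genes with a mean of 6 or higher. The median 3-day difference was 0.057 over the members, -0.014 over all genes tested and -0.001 over genes with a mean of 6 or higher. Single differences ranged from -0.996 to 0.81. The 3 rats at 3 days did not overlap the 3 sham rats for 50 members (34 higher and 16 lower), or 35.2%, against 18.8% of all genes and 24.4% of genes with a mean of 6 or higher. At 10 days the 2 calls were 1.41% of the members, against 0.735% of all genes and 1.14% of genes with a mean of 6 or higher, and the median difference was 0.006. Of all genes 0.492% rose and 0.243% fell at that time, and 49 members had an unadjusted p under 0.05 (34.5%, against 16.2% of all genes and 21.4% of genes with a mean of 6 or higher). Also at 10 days, 49 members did not overlap the sham rats (27 higher and 22 lower), or 34.5%, against 21% of all genes and 28.2% of genes with a mean of 6 or higher. The 3-day and 10-day comparisons share the same sham arrays, so their differences are given side by side and are not independent of each other. The F test over the 3 groups called 9 members, or 6.34%, against 2.35% of all genes and 3.51% of genes with a mean of 6 or higher.

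**Figure D1:**
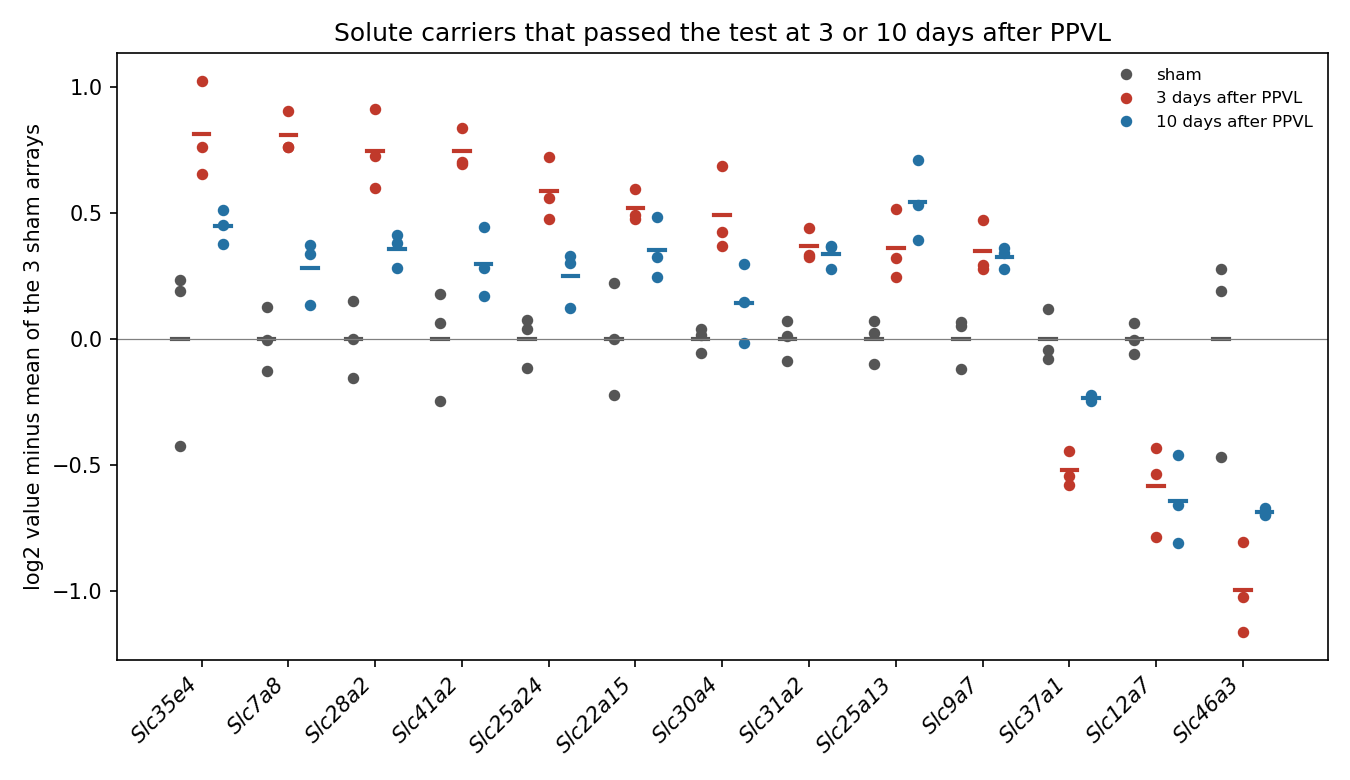
Values of the 13 solute carriers that passed the test at 3 or 10 days, by array. The horizontal axis lists the genes in the order of their 3-day difference, and the vertical axis is the log2 value minus the mean of the 3 sham arrays. Each point is a rat, coloured by group, and each short line is a group mean. Slc7a8 and Slc35e4 have the highest 3-day means, both 0.81 above sham, and Slc46a3 the lowest, at -0.996. The 10-day mean lies closer to the sham mean than the 3-day mean does for 11 of the 13 genes, the exceptions being Slc12a7 and Slc25a13. All but Slc25a13 are shown because of their 3-day difference. This choice by itself favours 3-day means far from sham, so the count does not show a return toward sham.

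Slc7a8, Slc28a2, Slc37a1, Slc25a24 and Slc41a2 passed at 3 days whichever of the 9 arrays was left out. The other 3-day calls each depended on 1 or more single arrays. Without the first sham rat, Slc12a7, Slc22a15, Slc30a4, Slc31a2 and Slc9a7 did not pass, and 8 members were called. Without the second sham rat, Slc12a7, Slc30a4, Slc31a2, Slc35e4, Slc46a3 and Slc9a7 did not, leaving 6 calls, and without the third sham rat Slc12a7, Slc22a15, Slc30a4, Slc46a3 and Slc9a7 did not, leaving 7. Without the first 3-day rat 6 members were called and without the second 5, with the calls of Slc12a7, Slc22a15, Slc30a4, Slc35e4, Slc46a3 and Slc9a7 ended by either and that of Slc31a2 by the second. Slc9a7 and Slc22a15 also lost their calls without the third 3-day rat. Leaving out a 10-day rat ended the 3-day calls of Slc9a7 and Slc35e4 each time, that of Slc22a15 without the second or the third, and that of Slc30a4 without the second. The highest adjusted p over these fits ranged from 0.0659 for Slc46a3 to 0.138 for Slc9a7 among these 7 genes. At 10 days, the call of Slc12a7 was lost without any one of the sham rats or of the 10-day rats (adjusted p up to 0.150), and that of Slc25a13 was lost in 8 of the 9 fits (up to 0.145).

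Promoters of the members were read from RefSeq on GRCr8, from 250 bases before to 50 bases after the start of each gene, and 114 of the 142 members had one. They were searched on both strands for the letters of sites of factors with a known part in lysosomal, amino acid and myeloid gene control. CACGTG, the E-box at the core of the element bound by Mitf and its relatives, was in 17 member promoters (14.9%), against 6.65% of all 27457 promoters and 10.4% of the 6897 promoters of genes with a mean of 6 or higher. It was in 2 of the 12 members with a call and a promoter, Slc12a7, which fell, and Slc31a2, which rose. The other promoters with it belong to 15 members without a call. They are Slc10a3, Slc16a1, Slc1a4, Slc25a2, Slc25a33, Slc25a51, Slc26a2, Slc30a5, Slc35a5, Slc36a1, Slc38a7, Slc39a11, Slc49a4, Slc5a6 and Slc7a5. GAGGAAGT, a form of the site of the myeloid factor PU.1, was in 3 member promoters (2.63%), against 2.44% of all promoters and 3.06% of those of genes with a mean of 6 or higher, and Slc22a15 was the one among them with a call. TGATGNAA, the element of C/EBP and Atf4 pairs, was in 5 (4.39%, against 3.82% and 2.04% of the same promoters), those of Slc1a4, Slc35a2, Slc38a1, Slc49a4 and Slc7a1, none of which was called. TGACTCA, the AP-1 site, was in 4 (3.51%, against 4.53% and 3.44% of the same promoters), and none was called. The 3 promoters below are those of called members that hold a searched site, shown 5′ to 3′ on the strand of the gene with the site in capitals. They lie at chr1:31354576-31354875 (minus strand, E-box starting 58 bases before the gene start), chr5:80753368-80753667 (plus strand, E-box starting 19 bases before) and chr2:192047311-192047610 (minus strand, the reverse complement of the PU.1 letters starting 39 bases before). A match is a description of these letters and not evidence of binding.
Slc12a7: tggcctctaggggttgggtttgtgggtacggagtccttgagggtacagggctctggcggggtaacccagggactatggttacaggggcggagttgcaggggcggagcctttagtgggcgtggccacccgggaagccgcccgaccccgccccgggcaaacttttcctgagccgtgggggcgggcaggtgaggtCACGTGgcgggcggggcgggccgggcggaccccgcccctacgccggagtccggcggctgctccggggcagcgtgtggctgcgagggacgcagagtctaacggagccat
Slc31a2: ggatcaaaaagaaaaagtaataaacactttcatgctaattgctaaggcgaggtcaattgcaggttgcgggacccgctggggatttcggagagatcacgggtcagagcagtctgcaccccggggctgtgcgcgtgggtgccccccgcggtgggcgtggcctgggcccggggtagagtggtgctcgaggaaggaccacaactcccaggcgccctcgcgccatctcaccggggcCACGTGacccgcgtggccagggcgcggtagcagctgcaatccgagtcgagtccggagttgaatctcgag
Slc22a15: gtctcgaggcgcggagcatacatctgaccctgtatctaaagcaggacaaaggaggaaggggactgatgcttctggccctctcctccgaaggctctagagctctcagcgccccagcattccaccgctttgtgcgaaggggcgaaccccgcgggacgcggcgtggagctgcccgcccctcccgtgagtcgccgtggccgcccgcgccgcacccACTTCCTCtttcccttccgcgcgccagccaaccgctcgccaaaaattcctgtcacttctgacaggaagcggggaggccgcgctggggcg

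The groups also differed in markers of cells other than macrophages. A marker score, the mean log2 deviation of a cell type's tested markers from their means over the 9 arrays, was lower after ligation for T cells (13 of 15 listed markers tested), at 0.12 to 0.31 in sham, -0.23 to 0.10 at 3 days and -0.27 to -0.06 at 10 days. The natural killer cell score (9 of 10 markers) was 0.17 to 0.23, -0.34 to 0.23 and -0.24 to -0.19 in the same order. The dendritic cell score (7 of 8) was 0.14 to 0.17, -0.22 to -0.11 and -0.04 to 0.05. At 3 days 3 of its 7 markers fell and 0 rose (42.9%, against 0.714% of all genes that fell). The B cell score (9 of 11) was higher after ligation, at -0.33 to -0.28, -0.10 to 0.37 and 0.08 to 0.35. At 3 days 2 of its 9 markers rose and 0 fell (22.2%, against 2.15% of all genes that rose). Macrophage markers (12 of 13) went from -0.27 to -0.17 in sham to -0.04 to 0.49 at 3 days and 0.04 to 0.09 at 10 days. The 0.49 was the third 3-day rat, and the second was at 0.01. Of the 12, only Fcna was called, and it rose at both times. That is 8.33%, against 2.15% of all genes that rose at 3 days and 0.492% at 10 days. At each time 10 of the 12 had a positive difference, while Marco and Timd4 had negative ones. The hepatocyte score (9 of 12) ran from -0.27 to -0.05, from -0.16 to 0.27 and from -0.01 to 0.14. The granulocyte score (9 of 9) had the largest 3-day shift of the scores, with means of -0.27 in sham, 0.42 at 3 days and -0.15 at 10 days. It ran from -1.16 in the first sham rat to 0.23 in another. At 3 days it was -0.04 to 0.72 and at 10 days -0.59 to 0.14. Of its 9 markers 2 rose at 3 days and 0 fell (22.2%, against 2.15% of all genes that rose). They were Csf3r (1.04 ± 0.21, adjusted p = 0.0326) and Fcnb (1.23 ± 0.18, adjusted p = 0.0103). In all, 8 of the 9 had a positive 3-day difference and 1 a negative one (-0.30). The platelet score (5 of 7) was likewise highest at 3 days, at -0.26 to 0.14, -0.20 to 0.71 and -0.45 to -0.10. The group mean of each of the 9 carriers that rose at 3 days was also highest then. They were called for lying above sham at 3 days, which by itself favours a highest mean at that time. The part of granulocytes and platelets in these rises was not tested. The dendritic cell score and the group means of Slc46a3 and Slc37a1 were lowest at 3 days, while Slc12a7 was lowest at 10 days. These 3 carriers were likewise called for lying below sham at 3 days. The part of dendritic cells in these falls was not tested either. With the markers of both lymphocyte types (T and natural killer cells) joined in 1 covariate, none of the 12 members passed at 3 days (limma adjusted p from 0.331 to 0.864, with 19 members at an unadjusted p under 0.05). With that covariate 0 of all 14014 genes passed at 3 days, against 401 without it, so the loss was not particular to the members. The differences of the 12 were then between 0.572 times (Slc22a15) and 1.59 times (Slc46a3) those without it. That score itself differs between the groups, so it cannot be fully told apart from the group difference. With the hepatocyte score as a covariate 5 of the 12 passed and 231 of all genes, and the 3-day differences of the 12 were 0.973 to 1.32 times those without it. The part of these cell types in the changes of solute carriers was not tested further.

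**Figure D2:**
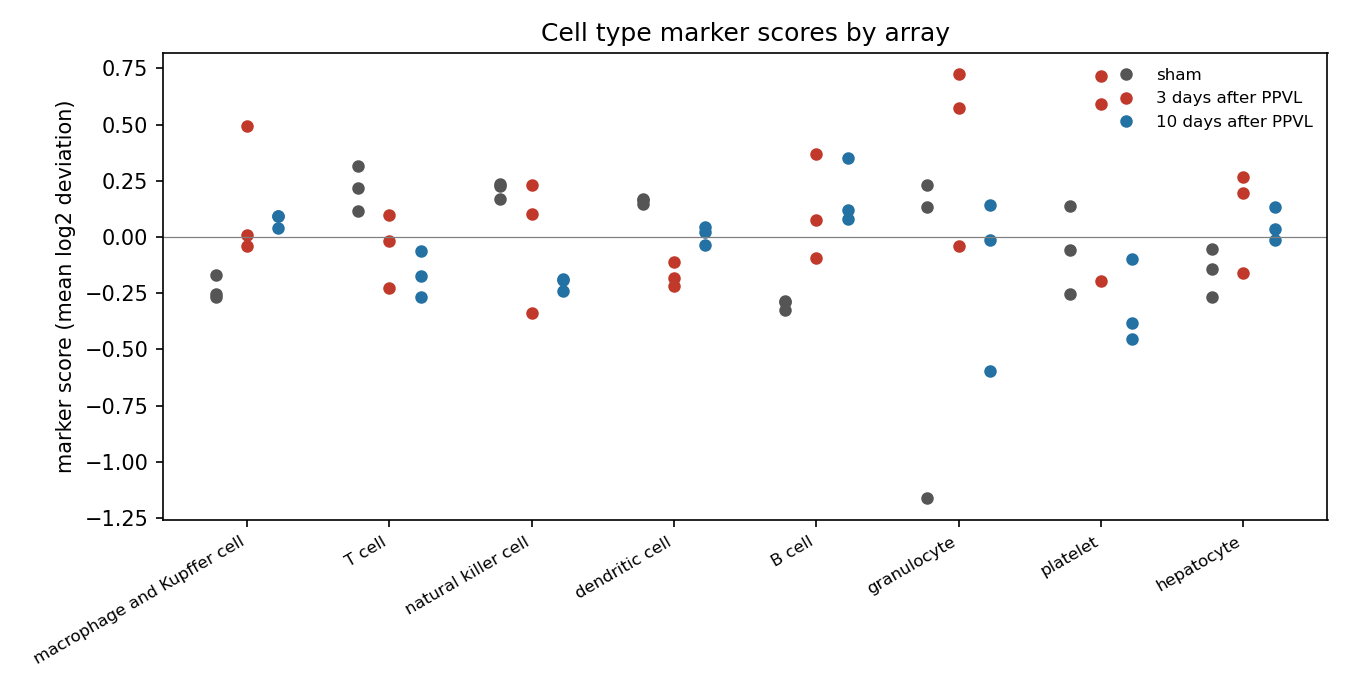
Marker scores of 8 cell types in each array. The vertical axis is the mean deviation of a list's tested markers from their means over all 9 arrays (log2), and each point is an array, coloured by group. The T cell and dendritic cell scores of all 3 sham rats lie above those of every rat after ligation, and the B cell and macrophage scores of all 3 sham rats lie below.

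The amino acid families held 22 members. Slc7a8 alone among them passed the test at 3 days. That is 4.55%, close to the 4.34% of genes with a mean of 6 or higher (2.86% of all genes). Of the 22, 15 did not overlap between 3 days and sham (11 higher and 4 lower). That is 68.2%, against 18.8% of all genes and 24.4% of genes with a mean of 6 or higher. The 11 include Slc7a6os, which is named after a neighbouring carrier and is not one itself. The class median was 0.13 at 3 days and 0.10 at 10 days. Slc7a8 encodes LAT2, an exchanger of neutral amino acids that is carried to the membrane by the heavy chain Slc3a2. Its log2 values were 9.82, 9.70 and 9.96 in the sham rats, 10.59, 10.73 and 10.59 at 3 days and 10.20, 9.96 and 10.17 at 10 days. Every 3-day rat was above every sham rat and every 10-day rat, and the 10-day rats were at or just above the sham range. The 3-day difference was 0.81 ± 0.09, a 1.75-fold rise (adjusted p = 0.00265), and the 10-day difference was 0.28 ± 0.09 (adjusted p = 0.167). Slc7a8 also had the smallest adjusted p of any member for 10 days against 3 days, a difference of -0.53 ± 0.09 that did not pass (adjusted p = 0.126).

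The heavy chain and the other Slc7 carriers among the members gave no call. The heavy chain Slc3a2 had values of 11.38, 11.47 and 11.53 in the sham rats, 11.41, 11.31 and 11.36 at 3 days and 11.38, 11.26 and 11.32 at 10 days, and its groups overlapped, with differences of -0.10 ± 0.06 at 3 days and -0.14 ± 0.06 at 10 days. Slc7a5, the light chain LAT1 and the member with the highest mean (11.89), was at 12.03, 11.93 and 12.10 in the sham rats, 11.80, 11.80 and 11.97 at 3 days and 11.87, 11.88 and 11.65 at 10 days. Its differences of -0.16 ± 0.08 and -0.22 ± 0.08 did not pass (adjusted p = 0.408 and 0.244). Slc7a11, the light chain of the cystine-glutamate exchanger that feeds glutathione synthesis, was at 9.43, 9.53 and 9.59 in sham and 10.05, 10.24 and 9.65 at 3 days. All 3-day values were higher than sham, but the third was close to it, and the difference of 0.46 ± 0.13 did not pass (adjusted p = 0.105). Slc7a7, the light chain of a cationic and neutral amino acid exchanger, had group means of 5.92 in sham, 6.41 at 3 days and 6.03 at 10 days. It reached the mean of 6 only through its 3-day arrays, so its difference is given as a description, also where it counts among the 11. Slc7a6, of the same system, differed by 0.23 ± 0.09 at 3 days (adjusted p = 0.221). Slc7a1, a carrier of arginine and lysine that needs no heavy chain, stayed between 10.94 and 11.07 on all 9 arrays. Slc7a11, Slc7a6, Slc36a1 and Slc38a7 are named for their place in the family, after their values were seen.

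The other carriers of neutral amino acids, most of them driven by sodium, had differences of both signs, and none of those named here passed the test. Slc38a2 (11.63 on average) and Slc38a1 (10.71) bring in glutamine and alanine. Slc38a2 was at 11.58, 11.47 and 11.62 in the sham rats, 11.65, 11.66 and 11.72 at 3 days and 11.66, 11.69 and 11.62 at 10 days, a 3-day difference of 0.12 ± 0.06. Slc38a1 was at 10.95, 10.80 and 10.83 in the sham rats, 10.65, 10.53 and 10.66 at 3 days and 10.54, 10.75 and 10.71 at 10 days, with every rat after ligation below every sham rat and differences of -0.25 ± 0.08 at 3 days and -0.20 ± 0.08 at 10 days (adjusted p = 0.136 and 0.25). Slc1a4, an exchanger of alanine, serine and cysteine, was 9.84, 9.82 and 10.05 in the sham rats, 9.22, 9.45 and 9.61 at 3 days and 9.52, 9.64 and 9.16 at 10 days, again with no rat after ligation reaching the sham range. Its differences were -0.48 ± 0.14 and -0.46 ± 0.14 (adjusted p = 0.113 and 0.137). Slc6a9, a glycine carrier, differed by -0.45 ± 0.13 and -0.40 ± 0.13 (adjusted p = 0.108 and 0.167). Slc43a2, a carrier of large neutral amino acids that works without sodium and without a heavy chain, was at 6.60, 6.69 and 6.80 in the sham rats, 7.08, 7.03 and 7.44 at 3 days and 7.03, 6.77 and 6.98 at 10 days. The 3-day rats were above the sham rats, by 0.49 ± 0.12 (adjusted p = 0.0587). Slc38a6, an orphan relative of the glutamine carriers named here after its values were seen, had the largest 10-day difference of any member, 0.84 ± 0.23. It did not pass (adjusted p = 0.113), and its first sham rat, at 6.73, was far below the other two, at 7.55 and 7.32.

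Members of the class at the lysosome are of interest because the lysosomal membrane reports its amino acid content to the kinase mTORC1. Slc38a9, the lysosomal arginine sensor of that pathway, was at 7.76, 7.86 and 7.80 in the sham rats, 7.53, 7.44 and 7.62 at 3 days and 7.34, 7.51 and 7.49 at 10 days. Every rat after ligation was below every sham rat, and the differences of -0.27 ± 0.07 and -0.36 ± 0.07 did not pass (adjusted p = 0.0896 and 0.0609). Slc36a1 and Slc38a7, which export amino acids from lysosomes, had the opposite sign, with differences of 0.27 ± 0.09 and 0.44 ± 0.14 at 3 days and 0.28 ± 0.09 and 0.44 ± 0.14 at 10 days. None passed (adjusted p from 0.144 to 0.16). Of 22 tested genes of the lysosomal sensing machinery itself (25 listed), 1 rose at 3 days and none fell (4.55%, against 2.86% of all genes called). It was Mitf, a transcription factor of the family that drives lysosomal genes, which was 0.72 ± 0.09 above sham (adjusted p = 0.00388). At 10 days Mitf was 0.34 ± 0.09 above sham and did not pass (adjusted p = 0.104). Of 24 tested genes of the amino acid response driven by Atf4 (26 listed), 0 passed at 3 days by limma, with 5 at an unadjusted p under 0.05 (2 higher and 3 lower). Of all genes 2.86% passed and 15.5% had such an unadjusted p, so a list of this size could hold no call at that share.

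**Figure D3:**
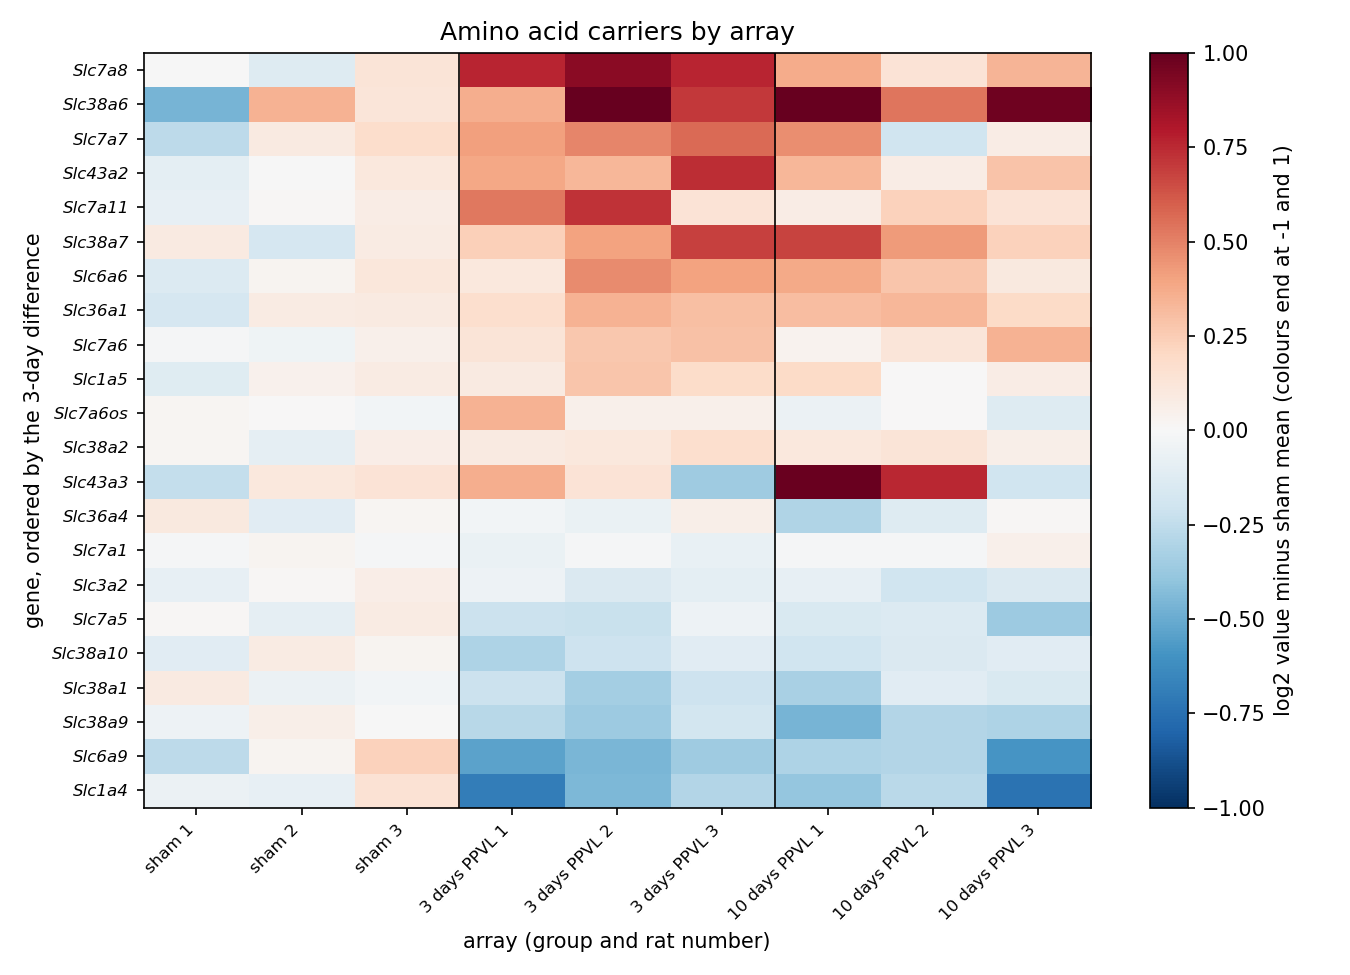
Each of the 22 genes in amino acid families (vertical axis, ordered by the 3-day difference) in each of the 9 arrays (horizontal axis, by group and rat number). Colour is the log2 value minus the gene's sham mean, red above and blue below, and the scale ends at -1 and 1. Slc7a8 at the top is red in all 3 rats at 3 days and paler at 10 days, while Slc1a4, Slc6a9, Slc38a9 and Slc38a1 at the bottom are blue in all 6 rats after ligation.

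At 3 days 1 of 2 nucleoside carriers, 1 of 5 organic ion carriers and 1 of 7 folate, vitamin and choline carriers were called. Of all genes 2.86% were called, and 4.34% of genes with a mean of 6 or higher. Classes this small could hold no further call at those shares, so the lack of calls among relatives does not set the called genes apart. Slc28a2, a sodium-coupled carrier that brings purine nucleosides and uridine into the cell, was at 7.57, 7.88 and 7.73 in the sham rats, 8.32, 8.64 and 8.45 at 3 days and 8.14, 8.11 and 8.01 at 10 days. All rats after ligation were above all sham rats, and the 3-day rats were the highest. The 3-day rise was 0.75 ± 0.10, or 1.68-fold (adjusted p = 0.00507), and the 10-day difference 0.36 ± 0.10 (adjusted p = 0.118). Slc29a3, the nucleoside carrier of lysosomes, differed by -0.13 ± 0.10 at 3 days. Slc22a15, which carries zwitterions and organic cations and has the PU.1 letters in its promoter, was at 5.85, 6.29 and 6.07 in the sham rats, 6.56, 6.66 and 6.55 at 3 days and 6.55, 6.40 and 6.32 at 10 days. The 3-day rats lay close together above a wider sham group, and the rise was 0.52 ± 0.11 (adjusted p = 0.0383). Slc22a5, the carnitine carrier, had values of 6.82, 6.60 and 6.80 in sham and 6.39, 6.40 and 6.60 at 3 days, and its difference of -0.28 ± 0.08 did not pass (adjusted p = 0.113).

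Slc46a3, a carrier of the lysosomal membrane related to the folate carrier of the gut, showed the largest change of any member. Its values were 7.15, 7.90 and 7.81 in the sham rats, 6.46, 6.60 and 6.82 at 3 days and 6.95, 6.92 and 6.93 at 10 days. The first sham rat was well below the other two and still above all 6 rats after ligation. The 3-day difference was -0.996 ± 0.17, a level 1.99-fold lower (adjusted p = 0.018), and the 10-day difference of -0.69 ± 0.17 did not pass (adjusted p = 0.0963). The choline carrier Slc44a1 had its highest values at 3 days, with 7.02, 6.84 and 7.04 in the sham rats, 7.67, 7.12 and 7.34 at 3 days and 6.93, 6.77 and 6.67 at 10 days. Its difference of -0.59 ± 0.13 was the most negative of any member for 10 days against 3 days, and it did not pass (adjusted p = 0.212). Slc23a2, an ascorbate carrier, was 0.43 ± 0.13 above sham at 10 days (adjusted p = 0.144).

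Of the 18 carriers of metals and haem, 3 rose at 3 days and 0 fell, or 16.7% called. Of all genes 2.86% were called and 2.15% rose, and 4.34% of genes with a mean of 6 or higher were called. At 10 days 0 passed by limma, against 0.735% of all genes and 1.14% of genes with a mean of 6 or higher. Slc41a2, of a family of magnesium carriers, was at 7.57, 7.88 and 7.99 in the sham rats, 8.65, 8.50 and 8.51 at 3 days and 8.09, 8.25 and 7.98 at 10 days. The 3-day rats were above all others, and the 10-day range just overlapped that of sham. The 3-day rise was 0.74 ± 0.11, or 1.67-fold (adjusted p = 0.0103), and the 10-day difference 0.30 ± 0.11 (adjusted p = 0.228). Its paralog Slc41a1 had the opposite sign, -0.29 ± 0.18, with wide groups (adjusted p = 0.499). Slc30a4, which moves zinc from the cytosol into vesicles, was at 8.23, 8.29 and 8.32 in the sham rats, 8.70, 8.96 and 8.65 at 3 days and 8.27, 8.43 and 8.58 at 10 days. Its 3-day rise was 0.49 ± 0.10 (adjusted p = 0.0355), and the 10-day rats spread from the sham range upward.

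Slc31a2, a copper carrier of endosomes and lysosomes whose E-box is shown above, was at 7.92, 8.02 and 8.08 in the sham rats, 8.34, 8.44 and 8.33 at 3 days and 8.37, 8.28 and 8.37 at 10 days. Both groups after ligation lay above sham, by 0.37 ± 0.07 at 3 days (adjusted p = 0.0195) and by 0.34 ± 0.07 at 10 days, where the adjusted p of 0.0558 missed the threshold. Slc31a1, the copper carrier of the plasma membrane, was 0.25 ± 0.07 above sham at 3 days without overlap (adjusted p = 0.113). The 10 other members of the Slc30 and Slc39 zinc families were not called, and their 3-day differences ran from -0.11 to 0.26. Slc39a6, a zinc importer, was 9.11 on average with a 3-day difference of 0.08 ± 0.08, and Slc30a7, which fills the Golgi with zinc, was 9.17 with 0.07 ± 0.07. Slc11a2, a divalent metal carrier that moves iron out of endosomes, differed by 0.11 ± 0.12. Of the genes left out of the members by name, the iron exporter Slc40a1 was 1.27 ± 0.17 above sham at 3 days (adjusted p = 0.00507), and the other 6 were not called at either time.

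Among the 28 mitochondrial carriers 1 rose at each time, or 3.57%. Of genes with a mean of 6 or higher 4.34% were called at 3 days and 1.14% at 10 days. Of all genes 2.86% and 0.735% were called. Slc25a24, which exchanges ATP-magnesium for phosphate and so sets the adenine nucleotide content of mitochondria, was at 7.28, 7.47 and 7.44 in the sham rats, 7.87, 8.12 and 7.95 at 3 days and 7.73, 7.70 and 7.52 at 10 days. It was highest at 3 days, with a rise of 0.59 ± 0.09, or 1.5-fold (adjusted p = 0.0103), and 0.25 ± 0.09 above sham at 10 days (adjusted p = 0.201). The paralogs that move the same substrates, Slc25a23 (-0.14 ± 0.08) and Slc25a25 (0.13 ± 0.07), did not pass. Slc25a13, an aspartate-glutamate carrier of the malate-aspartate shuttle, was at 6.81, 6.98 and 6.93 in the sham rats, 7.15, 7.42 and 7.22 at 3 days and 7.29, 7.44 and 7.61 at 10 days. It rose by 0.54 ± 0.10 at 10 days (adjusted p = 0.0485), and its 3-day difference of 0.36 ± 0.10 did not pass (adjusted p = 0.0963). Its paralog Slc25a12 differed by -0.08 ± 0.14 and -0.07 ± 0.14.

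Over all 28 mitochondrial carriers the median difference was 0.05 at 3 days and -0.02 at 10 days. Slc25a37, which brings iron into mitochondria for haem synthesis, was 0.32 ± 0.10 above sham at 3 days without overlap (adjusted p = 0.149), while the related Slc25a28 was at -0.19 ± 0.08. Slc25a3, the phosphate carrier, was 9.36 on average with differences of -0.11 ± 0.07 and -0.24 ± 0.07. Slc25a51, which carries NAD, had values of 6.21, 6.16 and 6.44 in the sham rats, 6.54, 6.30 and 6.49 at 3 days and 5.86, 6.08 and 5.86 at 10 days. All 10-day values were below all others, and the difference of -0.51 ± 0.10 for 10 days against 3 days did not pass (adjusted p = 0.172).

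The Golgi and endoplasmic reticulum class had 23 members, of which 1 rose and 1 fell at 3 days. That is 8.7%, against 2.86% of all genes and 4.34% of genes with a mean of 6 or higher. Slc35e4, an orphan of the nucleotide sugar family, was at 5.82, 6.44 and 6.48 in the sham rats, 7.01, 7.27 and 6.90 at 3 days and 6.76, 6.62 and 6.70 at 10 days. The first sham rat was well below the other two, and all rats after ligation were above all sham rats. The 3-day rise was 0.81 ± 0.16 (adjusted p = 0.0338) and the 10-day difference 0.45 ± 0.16 (adjusted p = 0.22). Slc37a1, which exchanges sugar phosphates for phosphate across the endoplasmic reticulum membrane, was at 6.96, 6.998 and 7.16 in the sham rats, 6.46, 6.50 and 6.60 at 3 days and 6.80, 6.82 and 6.81 at 10 days. The groups did not overlap, and the 10-day rats lay between the other groups. The difference was -0.52 ± 0.07 at 3 days, a level 1.43-fold lower (adjusted p = 0.00507), and -0.23 ± 0.07 separated 10 days from sham (adjusted p = 0.139). Its paralog Slc37a2 had the opposite sign, with values of 6.71, 7.28 and 7.17 in the sham rats, 7.56, 7.65 and 7.95 at 3 days and 7.59, 7.39 and 7.40 at 10 days and a 3-day difference of 0.67 ± 0.15 that just missed the threshold (adjusted p = 0.052). The third paralog among the members, Slc37a4, which feeds glucose 6-phosphate to the phosphatase that releases glucose, differed by -0.12 ± 0.07. The named nucleotide sugar carriers themselves gave no call. Slc35a2, for UDP-galactose, differed by 0.23 ± 0.09 at 3 days and Slc35c1, for GDP-fucose, by -0.08 ± 0.06.

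Among carriers of ions and acid, Slc12a7 and Slc9a7 were called at 3 days. They were 1 of 3 cation-chloride cotransporters and 1 of 10 proton, bicarbonate and anion exchangers. Of all genes 2.86% were called at that time, and 4.34% of genes with a mean of 6 or higher. Classes this small could hold no further call at those shares. Slc12a7, the potassium-chloride cotransporter KCC4 that lets cells lose volume and the other call with an E-box, was at 10.29, 10.24 and 10.36 in the sham rats, 9.76, 9.51 and 9.87 at 3 days and 9.49, 9.84 and 9.64 at 10 days. Every rat after ligation was below every sham rat, and the groups at 3 and 10 days overlapped. Slc12a7 fell by 0.58 ± 0.11 at 3 days (adjusted p = 0.0225) and by 0.64 ± 0.11 at 10 days (adjusted p = 0.0449). Neither of the other cation-chloride cotransporters among the members gave a call, with differences of 0.09 ± 0.06 for the potassium-chloride cotransporter Slc12a4 and -0.01 ± 0.12 for the sodium-driven Slc12a2 at 3 days. Slc9a7, an exchanger of sodium or potassium for protons in the trans-Golgi network, was at 7.65, 7.82 and 7.84 in the sham rats, 8.05, 8.24 and 8.06 at 3 days and 8.11, 8.13 and 8.05 at 10 days. Both groups after ligation lay above sham, by 0.35 ± 0.08 (adjusted p = 0.0455) and 0.33 ± 0.08 (adjusted p = 0.0786). The 3-day call of Slc9a7 was lost whichever single array was left out.

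Slc4a7, a sodium-bicarbonate cotransporter with a mean of 10.70, was 0.28 ± 0.08 and 0.27 ± 0.08 above sham without overlap at either time (adjusted p = 0.111 and 0.135). Its relative Slc4a11 lay below sham, with differences of -0.35 ± 0.12 and -0.50 ± 0.12 (adjusted p = 0.159 and 0.074). Slc8b1, which exchanges sodium for calcium across the mitochondrial inner membrane, was at 7.71, 7.97 and 7.98 in the sham rats, 8.29, 8.40 and 8.42 at 3 days and 8.55, 8.11 and 8.49 at 10 days, above sham in all 6 rats. Its differences of 0.48 ± 0.12 and 0.49 ± 0.12 did not pass (adjusted p = 0.0728 and 0.0892). The 3 phosphate and vesicular carriers all had higher means after ligation without a call. Slc20a1, a sodium-phosphate cotransporter, was 0.30 ± 0.07 above sham at 3 days (adjusted p = 0.0541), Slc17a9, which loads ATP into vesicles, 0.30 ± 0.08 (adjusted p = 0.0772), and the lysosomal sialic acid carrier Slc17a5 0.26 ± 0.10 (adjusted p = 0.244).

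The members that carry sugars, monocarboxylates, peptides and fatty acids gave no call at either time by limma. Of genes with a mean of 6 or higher 4.34% were called at 3 days and 1.14% at 10 days, so classes this small could hold none at those shares. The 7 sugar carriers included 1 with an unadjusted p under 0.05 at 3 days, the intracellular carrier Slc2a8 (-0.24 ± 0.08). The glucose carrier Slc2a3 was at 6.93, 7.53 and 7.47 in the sham rats, 7.66, 7.78 and 7.43 at 3 days and 7.37, 7.47 and 7.29 at 10 days, with overlap between groups and a 3-day difference of 0.31 ± 0.15 (adjusted p = 0.366). Slc5a3, which brings in myo-inositol, was -0.34 ± 0.07 at 10 days, below sham in all 3 rats (adjusted p = 0.0698). Of the 6 monocarboxylate and related carriers, Slc16a6 had the lowest p, with values of 10.27, 9.91 and 10.12 in the sham rats, 9.82, 9.57 and 9.66 at 3 days and 9.51, 9.90 and 9.83 at 10 days and a 3-day difference of -0.41 ± 0.12 (adjusted p = 0.127). The lactate carriers Slc16a3 and Slc16a1 differed by 0.29 ± 0.16 and 0.06 ± 0.07 at 3 days. The lysosomal peptide and histidine carriers Slc15a3, with a mean of 11.86, and Slc15a4, with 9.04, differed by -0.17 ± 0.08 and 0.12 ± 0.12. The fatty acid carrier Slc27a2 had the widest spread of any member, from 4.91 to 8.13 over the 9 arrays, and its difference of 0.57 ± 0.73 is of the size of its error.

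**Figure D4:**
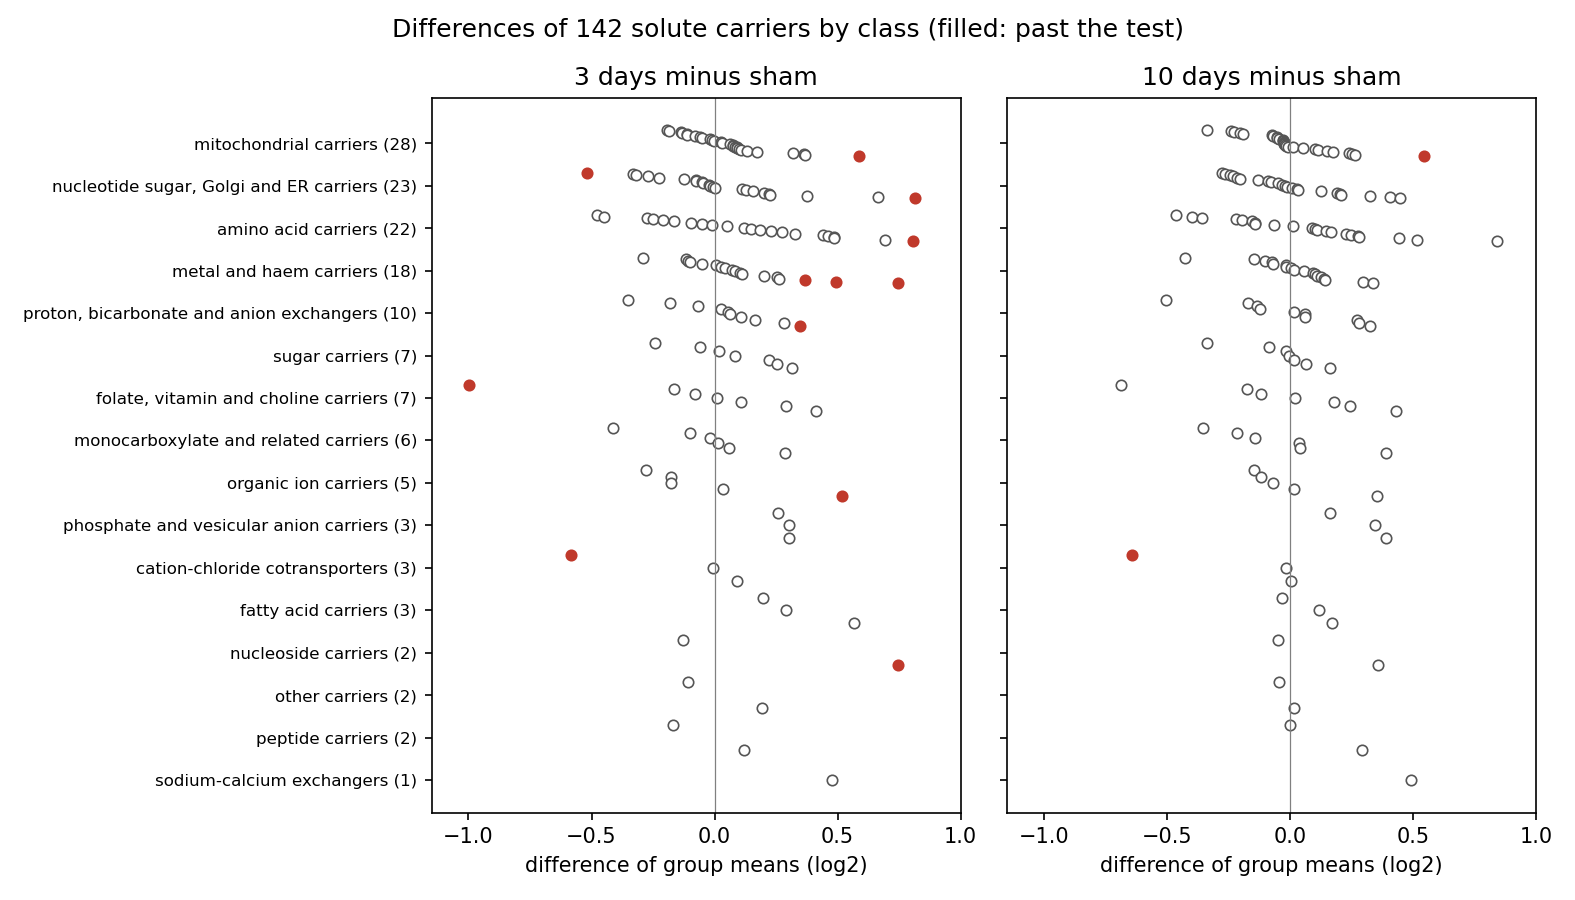
The difference of each of the 142 solute carriers from sham at 3 days (left) and 10 days (right), by class, with the number of genes per class in brackets. The horizontal axis is the difference of group means (log2). Each circle is a gene, and filled circles passed the test, 12 at 3 days and 2 at 10 days. Calls are spread over 9 classes at 3 days, with 3 in the metal and haem class and none among sugar, monocarboxylate, peptide, phosphate or fatty acid carriers.

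Comparing the 2 groups after ligation directly, 0 of the 142 members passed by limma, where 0.0714% of all genes did (0.0214% rose and 0.05% fell) and 0.0484% of genes with a mean of 6 or higher. At an unadjusted p under 0.05 there were 19 members, 18 of them lower at 10 days than at 3 days and 1 higher. That is 13.4% of the members, against 11.3% of all genes, and among genes with a mean of 6 or higher 711 were lower and 226 higher by the same rule. The 2 groups did not overlap for 26 members (7 higher and 19 lower at 10 days). That is 18.3%, against 14.6% of all genes and 15.1% of genes with a mean of 6 or higher. The called members were chosen by differences from sham, mostly at 3 days, which favours a gap between 3 and 10 days. For Slc7a8, Slc28a2, Slc41a2, Slc35e4, Slc30a4 and Slc25a24 all 10-day values lay below all 3-day values, with differences of -0.53, -0.39, -0.44, -0.37, -0.35 and -0.33. For Slc46a3 and Slc37a1 all 10-day values lay above, with differences of 0.31 and 0.29. The groups overlapped for the other called members, Slc25a13, Slc22a15, Slc12a7, Slc31a2 and Slc9a7, which differed by 0.18, -0.17, -0.06, -0.03 and -0.02. A call at 3 days and none at 10 days therefore does not show that a gene's level differed between those times.

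The same test was read for transporters outside the members. Of 27 tested carriers outside the Slc names (33 listed), 1 rose at 3 days (3.7%, against 2.86% of all genes called), the lysosomal dipeptide carrier Mfsd1, by 0.40 ± 0.08 (adjusted p = 0.038), with 0.40 ± 0.08 at 10 days (adjusted p = 0.0624). Of 29 tested ABC transporters (42 listed), 2 rose at 3 days (6.9%, against 2.86% of all genes called). They were the phospholipid floppase Abcb4 (0.66 ± 0.14, adjusted p = 0.042) and the organic anion exporter Abcc3 (0.44 ± 0.08, adjusted p = 0.0188), and Abcc3 also rose at 10 days (0.42 ± 0.08, adjusted p = 0.0497). Of 17 tested ion pumps and carrier partner proteins (22 listed), 0 passed at either time by limma, with 4 at an unadjusted p under 0.05 at 3 days (3 higher and 1 lower). Of all genes 2.86% passed at 3 days and 0.735% at 10 days, and 15.5% had such an unadjusted p at 3 days.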

How the data were processed

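RNA of hepatic macrophages from 9 rats (3 per group) was measured on Affymetrix arrays. The deposited values are log2 expression per probeset, normalised by the authors with RMA in Transcriptome Analysis Console, per the submitters' processing notes; versions and the genome build are not given in the sources used here. Of 36685 probesets, 18511 have 1 gene symbol in the platform annotation, 575 several and 17599 none. The highest-mean probeset stood for a gene (18166 genes), and a gene was tested if its mean reached the 30th percentile of all probesets (4.16) (14014, all 142 members among them). Groups came from the sample labels. Each contrast was tested 2-sided with limma 3.58.1 in R 4.3.3 over all 9 arrays, without a replicate block, with Benjamini-Hochberg adjustment. RMA shrinks low signals together, so small differences of dim genes are understated. Precision is limited by having 3 arrays per group, with a median standard error of 0.0861 per difference. Tested on simulated data for 3 days against sham (14014 genes, 200 of them changed), the procedure found 94.5% of changes of 1 log2 unit and 64.1% of those of 0.5, with 4.52% false calls. The noise was drawn independently for each gene and array. Shifts shared by many genes, such as those of cell mixture, were not simulated, so these shares may not hold for the real arrays. Deviations of same-numbered rats from their group means had correlations of -0.0950 to 0.0837. These lie within the range for rats of different groups and numbers (-0.127 to 0.167). The numbers thus gave no sign of pairing, and a shared batch could not be tested.

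The members and lists were chosen with earlier results of these data known. Genes named were every called member, in each class the 4 with the smallest F test p and the 2 with the highest mean, the 10 with the highest mean of all, those next to the threshold, and up to 4 called genes of the other lists; not all genes under this rule are printed, and some relatives were named after their values were seen. Classes follow the Slc family number, so Slc7a6os and Slc4a1ap, which are named after neighbouring carriers, count with their families. Alternatives changed the filter, the probeset rule, the features adjusted over, the normalisation, the moderation, array weights, the replicate block, marker scores as covariates, the samples in the fit and the threshold, and left out each array in turn. Promoter sequences came from RefSeq (GRCr8).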

Additional observations from a re-analysis of the deposited data

How the results depend on the processing

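None of the 14 called differences changed direction under any alternative, and of their 280 alternative values 172 stayed past the threshold and 108 did not. The count of members called at 3 days (12) was 3 when p was adjusted over all probesets, 5 with only the 2 groups compared, 5 with the hepatocyte score as a covariate, 0 with the score of T and natural killer cells, 19 at a threshold of 0.10, and 5 to 11 when single arrays were left out. The calls over all genes moved in the same direction under each of these, from 401 to 107, 134, 231, 0, 709 and 190 to 327 in that order. The count at 10 days (2) was 0 with no filter, over all probesets, with only the 2 groups compared and with either score as a covariate. It was 4 with the filter at the 50th percentile, with quantile normalization and with an intensity trend and robust moderation, 5 with array weights, 10 at a threshold of 0.10, and 0 to 2 with single arrays left out. Over all genes the 103 calls at 10 days became 0 with no filter, over all probesets and with the score of T and natural killer cells, 61 with only the 2 groups compared and 5 with the hepatocyte score. They became 173 with the filter at the 50th percentile and with the trend and robust moderation. They were 170 with quantile normalization, 197 with array weights, 444 at a threshold of 0.10 and 0 to 140 with single arrays left out. The F test (9) gave 0 over all probesets, 4 with the hepatocyte score, 0 with that of T and natural killer cells, 20 at a threshold of 0.10, and 2 to 8 with single arrays left out. Over all genes its 329 calls became 5, 85, 6, 659 and 54 to 290 in that order. No member was called for 10 days against 3 days by limma under any of these. With the replicate number as a block, 6 members were called at 3 days (Slc7a8, Slc46a3, Slc25a24, Slc28a2, Slc37a1 and Slc41a2), 0 at 10 days and 3 by the F test, and over all genes 264, 0 and 118. The labels give same-numbered rats nothing in common but the number, so this block takes up degrees of freedom and a lost call is not a smaller difference. The cause of the other changes was not tested. Whether a member not called stayed level cannot be read from 3 rats per group.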

Other observations

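Solute carrier genes with a mean below 6 were read by the same test. Of 210, 136 passed the filter on dim genes, and at 3 days 2 of them fell and 0 rose. That is 1.47% called, against 2.86% of all genes tested and 4.34% of genes with a mean of 6 or higher. Of all genes tested 0.714% fell. Slc7a3, a carrier of cationic amino acids, was at 5.95, 6.22 and 6.34 in the sham rats and at 5.53, 5.47 and 5.49 at 3 days, a difference of -0.67 ± 0.12 (limma adjusted p = 0.0182). Slc27a3, of the fatty acid family, was at 5.44, 5.51 and 5.71 in sham and at 4.75, 4.91 and 5.01 at 3 days, a difference of -0.66 ± 0.11 (adjusted p = 0.0172). Neither passed at 10 days, where the differences were -0.39 ± 0.12 and -0.43 ± 0.11. At that time 0 of the 136 passed, against 0.735% of all genes. These levels lie closer to the background of the array than those of the members, where RMA values understate a change.

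The first sham rat was the lowest of the 3 sham rats for 81 of the 142 members, the second for 42 and the third for 19. The order was not counted over all genes, so it cannot be said whether it is particular to solute carriers. The same rat had the lowest granulocyte score, at -1.16. Of the 9 members that rose at 3 days it had the lowest sham value for 8, and Slc7a8 was lowest in the second sham rat.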
